A study of Mus musculus with 12 samples.

Results

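The genes described here are 7 mouse genes whose human counterparts cause other repeat-expansion disorders: Htt, Atn1, Tbp, Atxn2, Atxn3, Atxn7 and Atxn10. They were chosen by symbol from a table of normalized read counts with 15759 entries, and all 7 were in the table and passed the filter on low values. Whole cortex and whole cerebellum were taken at 12 weeks of age from SCA1 KI mice and WT littermates, all on a C57BL/6J background, and polyadenylated RNA was sequenced in 12 libraries, 3 for each region and genotype. SCA1 KI mice carry 154 glutamine codons in 1 Atxn1 allele and 2 in the other (Atxn1 154Q/2Q), in every cell that expresses Atxn1. The labels name male mice and the methods of the study males and females combined. The study also describes the cerebellar libraries as an earlier dataset of the same laboratory, so region and dataset cannot be told apart. Replicate libraries carry a letter in cortex (WT B, C and D, SCA1 KI A, E and F) and a number in cerebellum (WT 2, 4 and 6, SCA1 KI 1, 3 and 5).

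In the polyglutamine disorders a run of CAG codons in a coding exon lengthens, and the protein then carries a longer stretch of glutamines, tends to misfold and collects in inclusions. Most of the proteins are made throughout the brain, yet each disorder strikes its own set of neurons, and the cerebellum and its connections are a common target. Spinocerebellar ataxia caused by ATXN10 differs, since its repeat lies in an intron and is not translated.

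Most of the mouse counterparts carry short runs of glutamine codons, the kind of sequence that the polyglutamine disorders lengthen, and some of these are shown. For 5 of the 7 genes and Atxn1, each line gives the coding strand of the longest run of glutamine codons in the annotated reference coding sequence (GENCODE vM21 on GRCm38, the build called mm10), 5′ to 3′, with 15 bases on either side; capitals mark the glutamine codons. The longest run in the mouse need not lie where the human repeat lies, and the human sequences were not used here. The Atxn1 run shown has 3 glutamine codons, against 2 named for the unexpanded allele, so it is not the stretch expanded in SCA1 KI mice.
Htt, exon 1, chr5:34761943-34761993, plus strand: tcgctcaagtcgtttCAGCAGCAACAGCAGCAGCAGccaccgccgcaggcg
Tbp, exon 4, chr17:15504376-15504444, plus strand: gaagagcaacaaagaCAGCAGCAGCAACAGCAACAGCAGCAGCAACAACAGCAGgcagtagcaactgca
Atxn2, exon 22, chr5:121810931-121810969, plus strand: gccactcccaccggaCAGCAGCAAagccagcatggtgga
Atxn3, exons 9 and 10 joined, chr12:101926548-101932981, minus strand: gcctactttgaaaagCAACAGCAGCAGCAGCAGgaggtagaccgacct
Atxn7, exon 2, chr14:14013141-14013185, plus strand: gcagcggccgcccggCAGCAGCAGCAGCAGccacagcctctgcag
Atxn1, exon 7, chr13:45567065-45567103, minus strand: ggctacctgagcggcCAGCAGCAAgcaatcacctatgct

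Tbp held the longest run, 13 glutamine codons (codons 58 to 70 of 316), of which 9 were CAG and 4 CAA. Htt held 7 (codons 18 to 24 of 3120), Atxn3 held 6 (codons 292 to 297 of 355) and Atxn7 held 5 (codons 25 to 29 of 867). Atxn2 held a run of 3, with 3 such runs in its coding sequence, and Atxn1, the knock-in gene, held 1 run of 3 in the reference. Atxn10 had no run at all, its 19 glutamine codons standing apart from each other. The sequence of the Atxn10 intron was not used here.

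Atxn1 itself was looked at first. It could not check the genotype labels, because read counts over the gene do not separate the expanded allele from the other. Its normalized counts were 8147, 7443 and 6521 in WT cortex and 4604, 7249 and 6267 in SCA1 KI cortex, so the groups overlapped. Its log2 fold change (LFC) was −0.31 (standard error 0.13, limma adjusted p = 0.132). It moved with single libraries, to −0.12 without SCA1 KI library A (adjusted p = 0.423) and to −0.45 without SCA1 KI library E, where it was called (adjusted p = 0.0248). In cerebellum, its LFC was 0.08 (adjusted p = 0.837). Both regions expressed their own markers. The summed normalized counts of 5 granule cell markers were 104965 to 148552 in cerebellum and 1100 to 1386 in cortex. Those of 5 markers of cortical excitatory neurons were 56510.0 to 84287 in cortex and 13718 to 22077 in cerebellum. Libraries held 29520855 to 51311309 reads on genes, and the members' values rested on 603 reads (the lowest Tbp library) to 13576 reads (the highest Htt library), which puts the counting error at 4.07% or less of any value. Counting errors of this kind cover sampling of reads only.

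In the cortex, Htt was the only one of the 7 genes that passed the test with an LFC past the limit, and it was lower in SCA1 KI mice. Atxn2 was lower and Atxn10 higher by less than the limit, and Atn1, Tbp, Atxn3 and Atxn7 did not pass. In the cerebellum none of the 7 passed. Calls required an adjusted p below 0.05 together with an LFC beyond 0.25 in either direction. By that rule 1 of 7 members was called in cortex, against 15.6% of all 15369 tested genes (10.8% lower and 4.82% higher), and 0 of 7 in cerebellum, against 5.36% (4.44% lower and 0.917% higher). In cerebellum limma gave 0 of 7 also at an unadjusted p under 0.05, and edgeR and DESeq2 likewise called 0. The share called among the 7 was near that of all genes. Their median LFC was −0.04 in cortex and −0.02 in cerebellum, beside medians over all tested genes of −0.0028 and −0.0049.

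**Figure D1:**
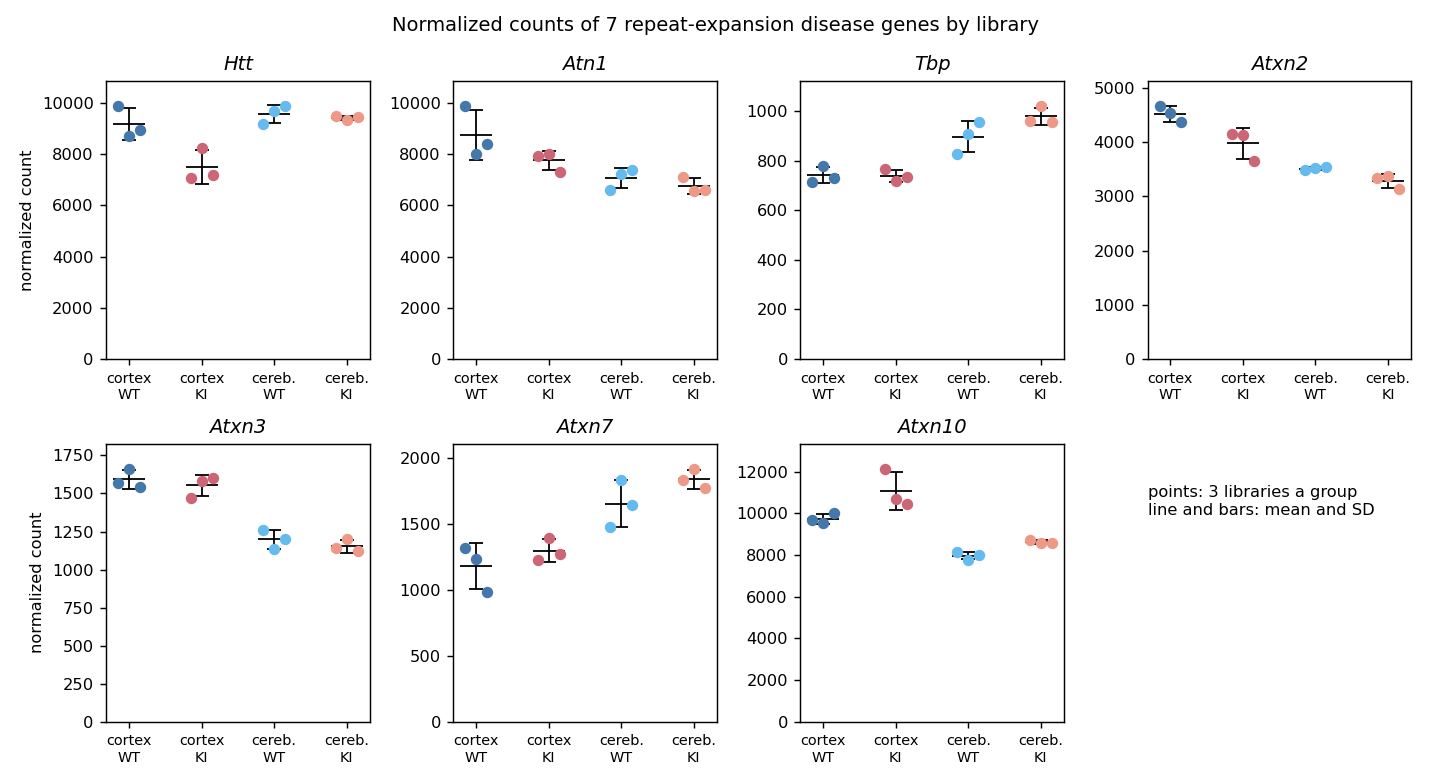
Normalized counts (vertical axes, from 0) of the 7 genes in the 12 libraries, by region and genotype; points are single libraries, and the line and bars are the mean and SD of 3 libraries. Htt in SCA1 KI cortex lies below every other group, from 7057 to 8243, and Atxn3, Atxn10 and Atxn2 lie higher, and Tbp and Atxn7 lower, in cortex than in cerebellum.

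Huntingtin is a large scaffold protein that links vesicles to motor proteins and takes part in transcription and autophagy. Htt (chr5:34761740-34912534, plus strand) counted 9867, 8695 and 8958 in the WT cortex libraries and 7057, 8243 and 7168 in the SCA1 KI ones. Every SCA1 KI library lay below every WT library, with library E closest to the WT range and libraries A and F well below it. The mean fell from 9173 ± 615 to 7489 ± 655 (SD, n = 3 each). The LFC was −0.29 (standard error 0.07, 95% interval −0.44 to −0.15, limma adjusted p = 0.0100), which is 18.4% lower. In cerebellum, Htt counted 9169, 9668 and 9863 in WT and 9493, 9321 and 9441 in SCA1 KI libraries, which overlapped. Its LFC there was −0.02 (95% interval −0.17 to 0.13, adjusted p = 0.920). The difference between the regions was −0.27 (standard error 0.10, 95% interval −0.48 to −0.06) and did not pass (adjusted p = 0.115), whereas it passed without SCA1 KI library E of the cortex (−0.34, adjusted p = 0.0291). In bulk tissue, fewer cells of a type and less RNA per cell cannot be told apart.

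The median cortex LFC of the tested genes varied with transcript length. The coding transcript of Htt is 13.215 kb long, and the 368 tested genes with a transcript of 10 kb or more had a median cortex LFC of −0.17. The medians were −0.09 for 2778 genes of 5 to 10 kb, 0.00 for 7910 genes of 2 to 5 kb, and 0.06 for 3553 genes under 2 kb. In cerebellum the longest and shortest classes had medians of 0.02 and −0.02. Library by library, the longest genes stood at −0.30 in SCA1 KI library A and at 0.21 in WT library B of the cortex, as log2 deviations from the mean of the 6 cortex libraries. Htt stood at −0.23 and 0.25 in the same libraries. Libraries F and D departed from this, with Htt at −0.21 and the longest genes at −0.05 in SCA1 KI library F, and Htt at 0.11 and the longest genes at 0.00 in WT library D. After the dependence of each library on GC content and transcript length had been fitted and removed, the cortex LFC of Htt was −0.11 and did not pass (adjusted p = 0.228). The call also ended when the cortex was fitted on its own (adjusted p = 0.0645) and without WT library B (LFC −0.24, adjusted p = 0.0406, inside the limit).

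**Figure D2:**
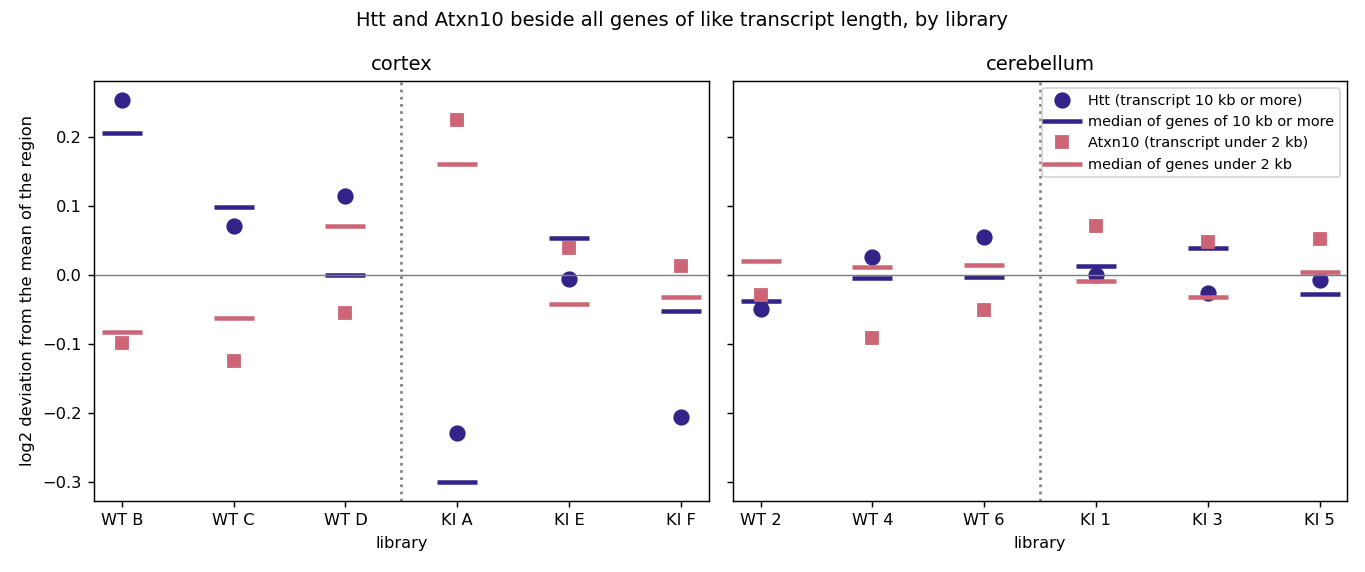
Log2 deviation from the mean of the 6 libraries of a region (vertical axis) in each library (horizontal axis), for Htt, Atxn10 and the medians of all genes of like transcript length; the dotted line separates WT from SCA1 KI. In SCA1 KI library A of the cortex Htt lies at −0.23 and Atxn10 at 0.22, on the same sides as the medians of long and short genes, and in cerebellum all medians lie within 0.04 of 0.

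Neuronal markers moved in the same direction as Htt. Of 4 markers of neurons, 3 were called lower in SCA1 KI cortex (Rbfox3, Snap25 and Syt1), and their summed normalized counts were 261999 to 279717 in WT and 178230.3 to 196888 in SCA1 KI libraries. Of 5 astrocyte markers, 3 were lower, with sums of 50263 to 55335 in WT and 33383 to 43584.0 in SCA1 KI libraries. In cerebellum 0 of 4 neuronal markers and 1 of 5 astrocyte markers were called. The part of these markers and of transcript length in the Htt result was not tested.

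Among the genes of nuclear proteins, Atn1 encodes atrophin-1, a transcriptional corepressor whose repeat expands in dentatorubral-pallidoluysian atrophy. Atn1 counted 9870.2, 8012 and 8394 in WT cortex and 7929, 8017 and 7322 in SCA1 KI cortex. WT library B stood above the rest and the other 5 libraries overlapped. Its LFC was −0.17 (95% interval −0.34 to −0.00, adjusted p = 0.163) in cortex, −0.08 without WT library B and −0.03 with the length and GC trend removed. In cerebellum the counts were 6607, 7245 and 7366 in WT and 7123, 6546 and 6583 in SCA1 KI libraries, with an LFC of −0.07 (adjusted p = 0.753). Atn1 shares 3874 exon bases with an overlapping gene model on the same strand (Gm45234), which has no entry of its own in the table.

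Tbp encodes the TATA-binding protein, the core of the general factor TFIID, and is mutated in spinocerebellar ataxia type 17. Its cortex libraries overlapped, with 717, 779 and 731 in WT and 768, 720 and 733 in SCA1 KI libraries. The cortex LFC was −0.00 (95% interval −0.16 to 0.15, adjusted p = 0.980). In cerebellum it counted 829, 910.0 and 955 in WT and 960, 1020.3 and 958 in SCA1 KI libraries. The SCA1 KI libraries all lay above the WT ones, narrowly so for WT library 6, and the LFC of 0.13 (95% interval −0.03 to 0.28) did not pass (adjusted p = 0.411). Tbp shares 2582 exon bases with Pdcd2 on the opposite strand, and the strand setting of the counting is not given in the sources used here.

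Atxn7 encodes ataxin-7, which anchors the deubiquitinating module of the SAGA coactivator and is mutated in spinocerebellar ataxia type 7, with loss of vision. Atxn7 counted 1321, 1232 and 984 in WT cortex and 1229, 1393 and 1273 in SCA1 KI cortex, and WT library D was the lowest. Its LFC was 0.15 (95% interval −0.08 to 0.38, adjusted p = 0.387) in cortex and 0.02 without WT library D. In cerebellum the counts were 1480.0, 1836 and 1642 in WT and 1831, 1917 and 1771 in SCA1 KI libraries, which overlapped, with an LFC of 0.16 (95% interval −0.07 to 0.39, adjusted p = 0.509). Atxn7 had the widest spread of the 7 genes within a group, a coefficient of variation of 14.8% in WT cortex. Atxn10 had the narrowest, 0.855% in SCA1 KI cerebellum.

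Atxn2 encodes ataxin-2, an RNA-binding protein of the cytoplasm that binds poly(A)-binding protein and acts on mRNA stability and translation. It counted 4658, 4542 and 4367 in WT cortex and 4152, 4128 and 3648 in SCA1 KI cortex, so that every SCA1 KI library was below every WT library. Its LFC of −0.19 (standard error 0.06, 95% interval −0.32 to −0.06) had an adjusted p of 0.0496 from limma and lay inside the limit. In cerebellum the counts were 3476, 3518 and 3539 in WT and 3343, 3374 and 3133 in SCA1 KI libraries, again without overlap. The LFC there was −0.10 (95% interval −0.23 to 0.03, adjusted p = 0.465). With the length and GC trend removed the values were −0.10 in cortex (adjusted p = 0.301) and −0.08 in cerebellum (adjusted p = 0.527).

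Atxn3 encodes ataxin-3, a deubiquitinating enzyme mutated in spinocerebellar ataxia type 3 (Machado-Joseph disease). It counted 1570, 1661 and 1545 in WT cortex and 1472, 1585 and 1603 in SCA1 KI cortex. In cerebellum it counted 1259, 1137 and 1200 in WT and 1139, 1201 and 1121 in SCA1 KI libraries. The genotypes overlapped in both regions. The LFC was −0.04 (95% interval −0.17 to 0.10, adjusted p = 0.753) in cortex and −0.05 (95% interval −0.19 to 0.08, also adjusted p = 0.753) in cerebellum, intervals that leave room for a change of less than the limit in either direction.

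Atxn10, whose protein is a cytoplasmic factor of neuronal survival and neurite growth, was higher in SCA1 KI cortex by less than the limit. It counted 9696, 9526 and 10000 in WT cortex and 12136, 10674 and 10475 in SCA1 KI cortex. All SCA1 KI libraries were above all WT ones, and library A was well above the other 2. Its LFC of 0.18 (standard error 0.06, 95% interval 0.06 to 0.31) had an adjusted p of 0.0463 and lay inside the limit, and without library A the LFC was 0.12 (adjusted p = 0.121). In cerebellum the counts were 8127, 7788 and 8008 in WT and 8715, 8576 and 8603 in SCA1 KI libraries, again without overlap, with an LFC of 0.11 (95% interval −0.01 to 0.24, adjusted p = 0.349). Its transcript is 1.937 kb long, in the class of short transcripts whose median was higher in SCA1 KI cortex. With the trend removed, the LFC was 0.11 in cortex (adjusted p = 0.0681) and 0.13 in cerebellum (adjusted p = 0.0826).

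**Figure D3:**
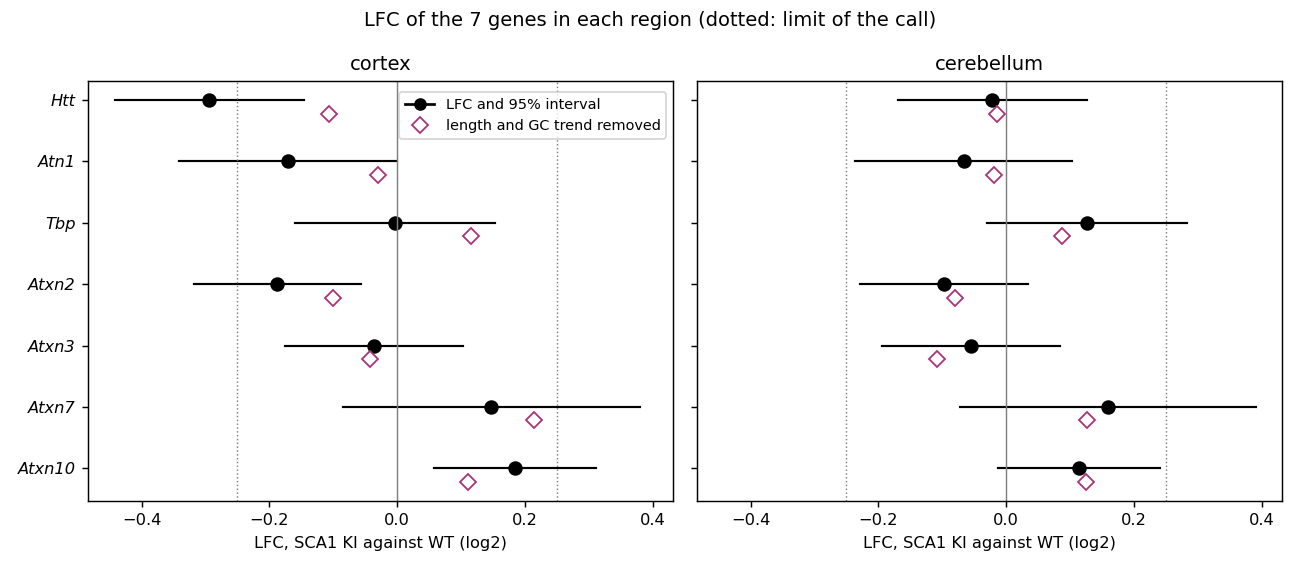
LFC of SCA1 KI against WT (horizontal axis, log2) for the 7 genes (vertical axis) in cortex and cerebellum, with 95% intervals from limma. Diamonds are the LFC with the length and GC trend of each library removed by the longest coding transcript, and dotted lines the limit of 0.25. Htt in cortex, at −0.29, is the only filled point outside the limit, and its diamond lies at −0.11.

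Groups without overlap were seen for 3 of 7 members in cortex (Htt and Atxn2 lower, Atxn10 higher) and 3 of 7 in cerebellum (Atxn2 lower, Tbp and Atxn10 higher). Over all tested genes the shares without overlap were 30.9% in cortex and 31.8% in cerebellum, and with 3 libraries against 3 an exact permutation test cannot go below 0.10. With no limit on the LFC, 3 of 7 members passed in cortex, against 17.4% of all tested genes, and 0 of 7 in cerebellum, against 5.49%. With cortex fitted on its own, limma passed none of these 3 (adjusted p = 0.0645 for Htt, 0.173 for Atxn2 and 0.182 for Atxn10). Atxn2 also did not pass by edgeR (adjusted p = 0.0769), whereas Htt and Atxn10 did, and DESeq2 passed all 3. The test of the difference between regions was passed by 0 of 7, against 8.15% of all tested genes (3.26% positive and 4.89% negative). The signs of the LFC in cortex and cerebellum were the same for 6 of 7 members, Tbp being the exception at −0.00 and 0.13. The share of all tested genes with the same sign was not counted, so no shared direction is read from this. The signs of Htt in cerebellum and of Atxn3 in cortex, both near 0, reversed in some other fits.

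As among all tested genes, more of the 7 were called between regions than between genotypes. These region differences cannot be told apart from differences between the datasets. In WT mice, 6 of 7 members were called between cortex and cerebellum, 4 higher in cortex and 2 lower, against 61.7% of all tested genes (31% higher and 30.7% lower). Atxn3 was higher in cortex by 32.8% (LFC 0.41), Atxn2 by 28.8% (0.36), Atn1 by 23.5% (0.30) and Atxn10 by 22.1% (0.29), with adjusted p of 9.1e-05 to 0.00404. Atxn7 was 28.9% lower in cortex (LFC −0.49, adjusted p = 0.00123) and Tbp 17.2% lower (−0.27, adjusted p = 0.00471). For each of these 6 genes the WT libraries of the regions did not overlap, as for 69.9% of all tested genes. WT Htt was not called between regions (LFC −0.06, 95% interval −0.21 to 0.09, adjusted p = 0.439).

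In SCA1 KI mice the region comparison called 6 of 7 members as well, 3 in each direction, against 62.4% of all tested genes (32% higher and 30.5% lower). The regions did not overlap for any of the 7, as for 74.3% of all tested genes. Atxn3 (LFC 0.43), Atxn10 (0.36) and Atxn2 (0.27) were higher in cortex, and Atxn7 (−0.50), Tbp (−0.40) and Htt (−0.33, adjusted p = 0.000755) were lower. Atn1 was inside the limit (LFC 0.20, adjusted p = 0.0378). Htt was called between regions in SCA1 KI but not in WT mice, and the difference of these differences is the interaction given above, which did not pass. With the length and GC trend removed, Atxn2, Atxn3, Atxn7 and Atxn10 were called in WT and SCA1 KI mice alike, Atn1 was not called in WT mice (0.07, adjusted p = 0.371), and Htt in SCA1 KI mice stood at 0.03 (adjusted p = 0.658). The result for Tbp depended on which transcript was used. The longest coding transcript of 12.794 kb gave −0.02 in WT mice, and the shortest principal one of 1891 bases gave −0.23 (adjusted p = 0.0113, inside the limit).

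Between genes, levels can be compared only per length, and these are descriptions of normalized counts per kb. In WT cortex, divided by the total exon length, Atxn10 was the highest at 5029 ± 124 (SD, n = 3), followed by Atn1 at 1904 ± 213. Htt followed at 375 ± 25.2. By this length Atxn3 at 294 ± 11.3 and Atxn2 at 288 ± 9.33 did not differ beyond their spread. Atxn7 at 148 ± 21.9 and Tbp at 54.7 ± 2.43 were the lowest. In WT cerebellum the order began in the same way, with Atxn10 at 4117 ± 88.8, Atn1 at 1538 ± 88.6 and Htt at 391 ± 14.7. There, by the same length, Atxn2 at 224 ± 2.04, Atxn3 at 222 ± 11.3 and Atxn7 at 207 ± 22.3 did not differ beyond their spread. Tbp was again the lowest at 66.1 ± 4.71. The choice of length moved the ranks below Atn1. With the longest coding transcript as length, Atxn2 passed Htt in WT cortex (1011 against 694) and in WT cerebellum (785 against 724). Atxn2 then stood well apart from Atxn3, at 1011 against 297 in WT cortex and 785 against 224 in WT cerebellum. With the shortest principal transcript, Tbp rose to 393 in WT cortex and Atxn3, at 297, became the lowest.

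Over the 12 libraries, each gene centred on the mean of its region, the genes most like each member were sought among 12663 genes with a mean of at least 100. The libraries share depth, genotype and the length trend, so these Pearson correlations are descriptions. Htt was most like Dopey2 (r = 0.99) and Plxnd1 (r = 0.97), and Atxn10 most like Hnrnpr (r = 0.97) and Nfyc (r = 0.96). Atxn7 was most like Ints10 and Zcchc8 (r = 0.96 each), and Atxn2 most like Zbtb16 (r = 0.94) and Gabbr2 (r = 0.93). Atn1 was most like Kndc1 (r = 0.92) and Sez6l2 (r = 0.90), Atxn3 most like Colgalt2 (r = 0.92) and 2900097C17Rik (r = 0.91), and Tbp most like Gnl2 and Sde2 (r = 0.88 each). The strongest negative correlations of these 7 genes were of like size, from −0.90 to −0.97. Leaving out 1 library at a time moved the Htt value with Dopey2 between 0.98 and 0.99 and the Tbp value with Gnl2 between 0.72 and 0.92.

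Of 30 further genes of repeat-expansion disorders, 29 were in the table, Atxn1 among them. In cortex 2 rose and 8 fell, so that 10 of 29 were called, against 15.6% of all tested genes (4.82% higher and 10.8% lower), with a median LFC of −0.10. Among those with the smallest p were Rilpl1, Jph3 and Fgf14, all lower. Rilpl1, whose 5′ repeat expands in an oculopharyngodistal myopathy, counted 2288, 2757 and 2318 in WT and 1570, 1558 and 1398 in SCA1 KI cortex (LFC −0.70, adjusted p = 0.000458). Jph3 encodes a junctophilin that holds the endoplasmic reticulum to the plasma membrane and is mutated in Huntington disease-like 2 (LFC −0.44, adjusted p = 0.00122). Fgf14 encodes a regulator of sodium channels and carries the intronic repeat of a late-onset ataxia (−0.44, adjusted p = 0.00305). All 3 were lower without overlap, and with the length and GC trend removed they remained called, at −0.66, −0.34 and −0.53. Other called genes were Dab1, Gipc1, Cacna1a and Fmr1, lower, and Pabpn1 and Aff2, higher. Of all 10 called, Fmr1 lost the call without SCA1 KI library A or F or WT library C, Gipc1 without SCA1 KI library F, and Aff2 in 10 of the 12 fits that left out 1 library. Fmr1 (adjusted p = 0.0977) and Aff2 (adjusted p = 0.104) also lost it with cortex fitted on its own, and Gipc1 (−0.25, inside the limit) with the trend removed by the shortest principal transcript.

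In cerebellum 0 of the 29 rose by limma (1 by DESeq2) and 2 fell, a share near the 5.36% of all tested genes (0.917% higher and 4.44% lower), with 7 at an unadjusted p under 0.05 and a median LFC of 0.08. Zfhx3, a zinc finger transcription factor with a repeat expanded in spinocerebellar ataxia type 4, counted 1278, 573 and 799 in WT and 225, 210.3 and 237 in SCA1 KI cerebellum (LFC −1.90, adjusted p = 0.00167). Bean1, the gene of spinocerebellar ataxia type 31, counted 495, 509 and 526 in WT and 401, 395 and 346 in SCA1 KI libraries (LFC −0.43, adjusted p = 0.0152). Neither was called in cortex, and the difference between regions passed for both (2.00, adjusted p = 0.00797, and 0.63, adjusted p = 0.00914). The difference passed in the other direction for 8 genes of the list, among them Dab1, Fgf14, Fmr1, Tcf4, Rilpl1, Cacna1a and Jph3, so that 10 of 29 passed, against 8.15% of all tested genes. The 8 became 3 to 5 when any 1 of 7 libraries was left out, and 3 without SCA1 KI library 3 of the cerebellum or WT library C of the cortex. Of those named, Fgf14, Tcf4, Rilpl1, Cacna1a and Jph3 did not pass in every fit that left out 1 library. The call for Bean1 was lost without SCA1 KI library 5 or WT library 6 (highest adjusted p 0.0753).

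**Figure D4:**
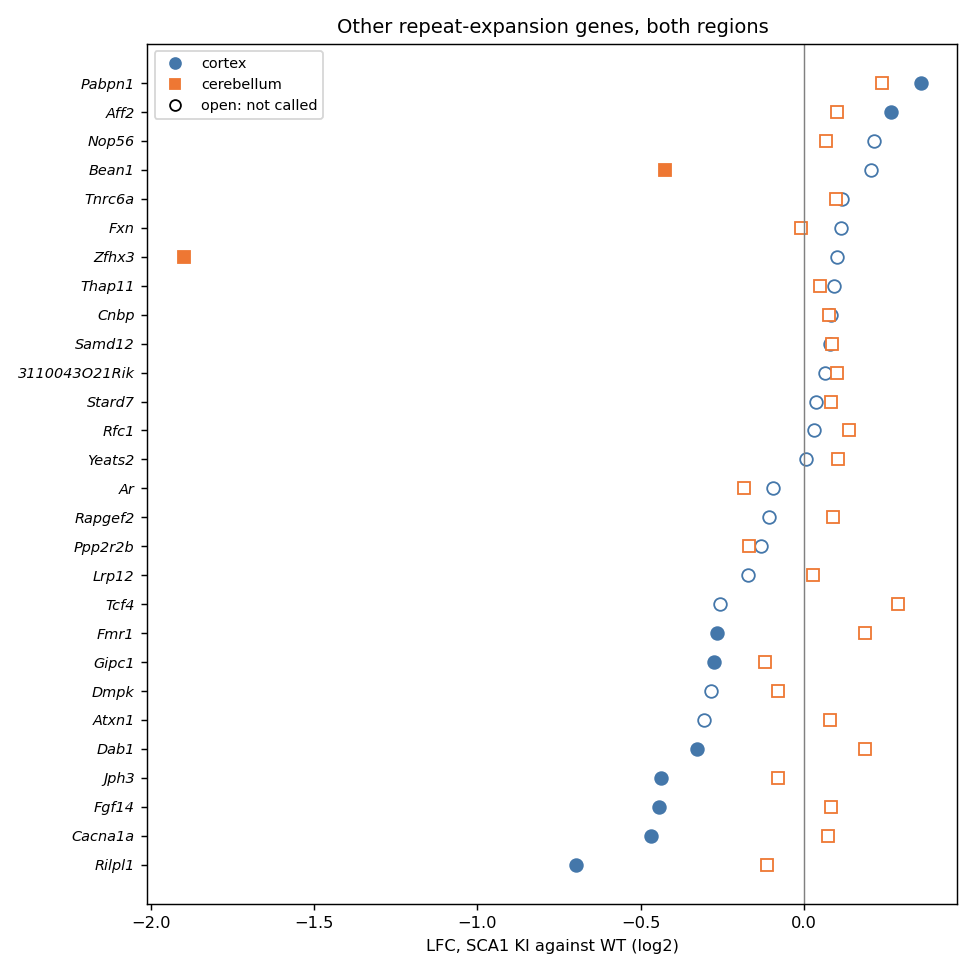
LFC of SCA1 KI against WT (horizontal axis, log2) for further genes of repeat-expansion disorders (vertical axis, ordered by the cortex LFC); circles are cortex, squares cerebellum, and filled symbols are called. Those called lower in cortex have cerebellar values between −0.12 and 0.19, and Zfhx3 stands at −1.90 in cerebellum and 0.10 in cortex.

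Some listed markers of other brain regions were also lower in SCA1 KI cerebellum. Of 4 thalamic markers, 2 were called lower (Tcf7l2 and Lef1). Their list had sums of 26089 to 27581 in WT and 22810.1 to 24524 in SCA1 KI cerebellum. The thalamic sums in cortex, 4743 to 7609, were below these. In cerebellum 0 of 4 striatal and 0 of 4 hippocampal markers were called. Striatal sums were 5762 to 6997 in WT and 4657 to 5200 in SCA1 KI cerebellum. Hippocampal sums went the other way, with 3053 to 3529 in WT and 3458 to 3801 in SCA1 KI cerebellum. Of 5 tested markers of midbrain and hindbrain, Pou4f1 was called lower, and the sums over the list were 415 to 692 in WT and 180 to 241 in SCA1 KI libraries. In cortex Pou4f1 was called higher, and the sums were 116 to 218 in WT and 329 to 1213 in SCA1 KI libraries. The part of all these markers in the Zfhx3 result was not tested.

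The partners of the 7 proteins were examined as lists, whose counts stand beside the 15.6% of all tested genes called in cortex and the 5.36% called in cerebellum. Among 12 huntingtin partners, Optn and Hap1 rose and Pacsin1 fell in cortex (3 of 12), and Hap1 fell in cerebellum (1 of 12). Optn encodes optineurin, an autophagy receptor, and counted 625, 660 and 671 in WT and 986, 952 and 954 in SCA1 KI cortex (LFC 0.56, adjusted p = 0.000115). Pacsin1 encodes an adaptor of synaptic endocytosis (LFC −0.49, adjusted p = 0.000144). Hap1, the huntingtin-associated protein of vesicle transport, had an LFC of 0.54 in cortex (adjusted p = 0.0442) and −0.78 in cerebellum (adjusted p = 0.0182), and the difference between regions passed (1.32, adjusted p = 0.00522). The Hap1 calls were unstable. In cortex the call was lost in 9 of the 12 fits that left out 1 library, also where that library was cerebellar. In cerebellum it was lost in 4 of 12. The other 9 partners were not called in either region, and the medians of the 12 were −0.01 and 0.10.

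Of 15 TFIID subunits beside Tbp, 0 were called in either region by limma, edgeR or DESeq2, with 1 in each region at an unadjusted p under 0.05 (median LFC 0.02 in cortex and 0.07 in cerebellum). Of 17 SAGA subunits beside Atxn7, limma called only Atxn7l3 (edgeR called 2 and DESeq2 called 3, all in cortex), which encodes an activator of the same deubiquitinating module. It counted 13762, 14518 and 14407 in WT and 10805, 11629 and 11264 in SCA1 KI cortex (LFC −0.34, adjusted p = 0.00186) and was not called in cerebellum (−0.12, adjusted p = 0.321). Among 10 ataxin-2 partners, Rbfox1, a neuronal splicing factor, was lower in cortex (−0.51, adjusted p = 0.000208) and Sh3gl3, an endophilin of endocytosis, was lower in cerebellum (−0.74, adjusted p = 0.00391). Of 9 ataxin-3 partners and 3 ataxin-10 partners, 0 were called in either region by any of these tools, with 1 of each list at an unadjusted p under 0.05 in cortex and 0 in cerebellum.

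Among 11 atrophin-1 partners, the histone deacetylases Hdac1 (LFC 0.31, adjusted p = 0.00598) and Hdac2 (0.26, adjusted p = 0.00949) rose in cortex, and the scaffold proteins Baiap2 (−0.52, adjusted p = 0.00412) and Magi2 (−0.31, adjusted p = 0.00861) fell, 4 of 11 against 15.6% of all tested genes. With the length and GC trend removed, Hdac2 (0.18) and Magi2 (−0.21) were no longer called, by either choice of transcript. Hdac1 lost the call by the longest coding transcript (0.24) and kept it by the shortest principal one (0.26, adjusted p = 0.00599). All 3 lost it with cortex fitted on its own (adjusted p of 0.0520 to 0.0594), as did Hdac2 without SCA1 KI library A or WT library B or D, and Magi2 without SCA1 KI library F. In cerebellum Nr2e1, an orphan nuclear receptor, was near 0, with 39, 20 and 19 normalized counts in WT and 0 to 2 in SCA1 KI libraries, and was called lower (adjusted p = 3.44e-05). Of 10 paralogues of the 7 genes and of Atxn1, the ataxin-3 relative Josd1 (−0.37, adjusted p = 0.00137) and Atxn7l3 fell in cortex, and 0 were called in cerebellum by limma, edgeR or DESeq2 (1 at an unadjusted p under 0.05). Of 12 genes of mismatch repair and its partners, which set how far such repeats lengthen, Mlh3 rose in cortex (0.27, adjusted p = 0.00727) and 0 were called in cerebellum by these tools (2 at an unadjusted p under 0.05), with medians of 0.11 and 0.04. The Mlh3 call was lost with cortex fitted on its own (adjusted p = 0.0631) and without WT library D or SCA1 KI library E (lowest LFC 0.23).

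Over all these lists together, 21 of 126 genes (16.7%) were called in cortex and 5 of 126 (3.97%) in cerebellum, close to the shares of all tested genes. In cortex 18 of the 21 remained called with the length and GC trend removed, 14 of 21 with each region fitted on its own, and 14 of 21 in each of the 12 fits that left out 1 library. In cerebellum all 5 remained called with the trend removed and with each region fitted on its own, and 3 of 5 in each of the fits that left out 1 library.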

How the data were processed

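The authors sequenced poly-adenylated RNA as paired ends, mapped reads to mm10 with STAR, used featureCounts for gene counts and scaled each library by its DESeq2 size factor. Versions of these 3 tools and the strand setting are not given in the sources used here. The deposited signal is 1 table of these normalized counts per gene and library, 100% of whose values came out as whole reads (tolerance 0.02), so that reads were recovered for edgeR and DESeq2. Columns state the region and genotype of a library without the replicate number of the labels, and 0 columns were left out. Of 15759 entries, 24 symbols had been turned into dates and 14978 matched GENCODE vM21, which gave coordinates, exon lengths and sequences.

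log2(normalized count + 1) was fitted with limma 3.58.1 (R 4.3.3, eBayes with trend), 12 libraries and 4 group means, for 15369 genes with a mean of at least 10; 390 genes lay below. Adjusted p are Benjamini-Hochberg values over all tested genes. Fold changes on this scale understate those of low counts. The dependence on GC content and transcript length was fitted per library with natural splines on 14609 genes (95.1% of those tested). Alternatives were separate fits per region, edgeR 4.0.16 and DESeq2 1.42.0, pseudocounts of 5 and 0.5, a filter at a mean of 100 or none, median centring by region, no limit on the LFC, and leaving out each library. The length of the shortest principal transcript was added after seeing the data. The fits were also run on simulated counts. Those counts held no trend on length or GC content, so they say nothing about results that depend on that trend.

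The 7 genes and all lists were chosen with earlier results of these data known. Genes were named by rule: the 7 members, Atxn1, up to 4 called genes with the smallest p per list and region, and the 2 genes most like each member. The remaining called genes of the further repeat-expansion list were named after their values were seen. Results for some items that meet these rules are not reported here.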

Additional observations from a re-analysis of the deposited data

How the results depend on the processing

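The cortex call of Htt (LFC −0.29) was lost with each region fitted on its own (−0.29, adjusted p = 0.0645) and with the length and GC trend removed, by the longest coding transcript (−0.11) or the shortest principal one (−0.12), and leaving out 1 library gave −0.36 to −0.24. Members called lower in cortex then numbered 0 in these settings, 0 to 1 over the libraries left out, and 2 with no limit on the LFC, which also gave 1 higher. Values near 0 reversed. Htt in cerebellum became 0.0025 with median centring and ranged from −0.052 to 0.00048 over the libraries left out. Tbp in cortex became 0.115 with the trend removed by the longest coding transcript, −0.104 by the shortest principal one, and 0.0133 with edgeR. It became 0.0320, 0.0165 and 0.0027 without WT library C and SCA1 KI libraries E and F (lowest −0.030 over libraries left out). Atxn3 in cortex ranged from −0.059 to 0.0025. With the trend removed, Htt between regions became 0.123 (WT) and 0.0307 (SCA1 KI), or 0.177 and 0.0595 by the principal transcript. Tbp between SCA1 KI regions became 0.0101 by the longest coding transcript only. With the trend removed by the longest coding transcript only, the difference between regions became 0.0271 for Tbp, 0.0874 for Atxn7 and −0.0138 for Atxn10. It became 0.00064 for Atxn7 with edgeR and −0.0023 for Atxn3 with centring. Over libraries left out it reversed for Atxn3 at −0.0171, −0.0014, −0.0023 and −0.0042, and for Atxn7 at 0.0654, 0.0188, 0.0271, 0.0763, 0.0260 and 0.0017. Members called lower between WT regions numbered 1 with the trend removed by either transcript and 1 to 2 over libraries left out. Between SCA1 KI regions they numbered 1 with the trend removed by the longest transcript, and for the difference between regions 0 to 1 over libraries left out. The cause was not tested. Tbp was called lower between WT regions only with cerebellum WT library 6 and cortex WT library B, Atn1 higher only with cortex WT library B, and Atxn2 higher between SCA1 KI regions only with cerebellum library 5 and cortex libraries A and E. With each region fitted on its own, all tested genes called higher numbered 393 in cortex against 741, and 220 in cerebellum against 141, which was 231 with DESeq2. Leaving out a cerebellar library lowered the 141 to 43 without SCA1 KI library 1, 50 without 3, 55 without 5, and 78 and 81 without WT libraries 2 and 6, and lowered the 683 called lower there to 356 and 404 without SCA1 KI libraries 1 and 3. No paired analysis was possible because the columns carry no replicate numbers of the labels. The number of libraries, 3 a group, limits the precision beside a counting error of at most 4.07% for any member.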
